A study of Mus musculus with 6 samples.

Results

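The genes described here carry out cholesterol synthesis, sensing, transport and export. They are 33 genes chosen by name and matched to the deposited count table by gene symbol. All 33 were among the 19954 genes of that table. By role they were 8 genes of the mevalonate steps, 11 genes of the route from squalene to cholesterol, 5 genes of sterol sensing, 4 genes of the liver X receptors and export, and 5 genes of uptake, intracellular transport and turnover. The table holds 18514 nuclei of the mouse lumbar spinal cord, read by droplet single-nucleus RNA sequencing (10x chemistry, version 2) and sorted by the authors into 6 major cell types, with 6035 neurons divided further into 38 subtypes. The 3 TESS samples came from paralysed mice that spent 30 min on a treadmill while TESS, an electrical stimulation applied over the spinal cord, was on. The 3 CON samples, labelled paralyzed, came from mice that had the same treadmill time without stimulation. All 6 samples came from wild-type C57BL/6 mice with a severe contusion of the thoracic cord that paralysed both legs. The source label gives the lumbar cord and the protocol speaks of tissue at the thoracic injury, so which segment was taken is not certain. Stimulated walking was studied with 5-HT1a and D1 agonists on board, per the series text, and whether the CON mice had these agonists too is not clear from it. Nothing in the labels says that each sample was a separate animal, so the p-values measure the spread between these samples, which may be partly technical.

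Cells make cholesterol from acetyl units through mevalonate, farnesyl diphosphate and squalene, and the later enzymes turn the squalene backbone into cholesterol. When membranes run low in sterol, SCAP carries the SREBP transcription factors out of the endoplasmic reticulum to be cut and to switch on these enzymes, while INSIG proteins hold them back when sterol is plentiful. Surplus sterol makes oxysterols that turn on the liver X receptors, which raise the exporters ABCA1 and ABCG1. In the adult cord oligodendrocytes use much cholesterol for myelin, astrocytes supply it to neurons on apolipoprotein particles, and neurons clear it through the hydroxylase Cyp46a1.

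The samples held between 1582104 and 4037976 unique molecular identifiers (UMIs, counted RNA molecules), and the 3 TESS samples were the shallower ones, with 1582104 to 2891177 UMIs against 3365530 to 4037976 in the CON samples. The deposited nucleus table gives a batch number, whose meaning it does not state: TESS 1, CON 1 and CON 2 share batch 3, and TESS 2, TESS 3 and CON 3 each have a batch of their own. Only batch 3 therefore holds both groups, with 1 sample against 2. Each pair of libraries shared 7 to 20 cell barcodes, 205 in all. Marker genes went with the authors' cell types. The 5 astrocyte markers, for example, summed to 6492 to 9481 CPM (UMIs of the gene per 1000000 UMIs of the class) in astrocytes and to 88.8 to 133 CPM in neurons.

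Levels of the members were first compared between cell types, gene by gene, since UMI counts are not comparable between genes. These levels are a description without a test, because the cell types were made by clustering the same nuclei on genes that may include the members. Over all 6 samples, 11 members had their highest mean in oligodendrocytes, 8 in astrocytes, 5 in oligodendrocyte precursor cells, 4 in microglia, 3 in endothelial cells and 2 in neurons. For 1 gene alone, Srebf1, the lowest sample of the leading cell type lay above the highest sample of every other cell type. Srebf1, which encodes the SREBP form best known for fatty acid synthesis, ranged from 175 to 402 CPM in astrocytes and from 58.0 to 150 CPM in oligodendrocytes, the next highest type. Npc2, which carries cholesterol inside lysosomes, ranged from 357 to 687 CPM in microglia and from 195 to 287 CPM in oligodendrocytes. Cyp46a1 ranged from 48.0 to 88.8 CPM in neurons and from 11.5 to 35.3 CPM in oligodendrocytes. The other members overlapped between their top 2 cell types.

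**Figure D1:**
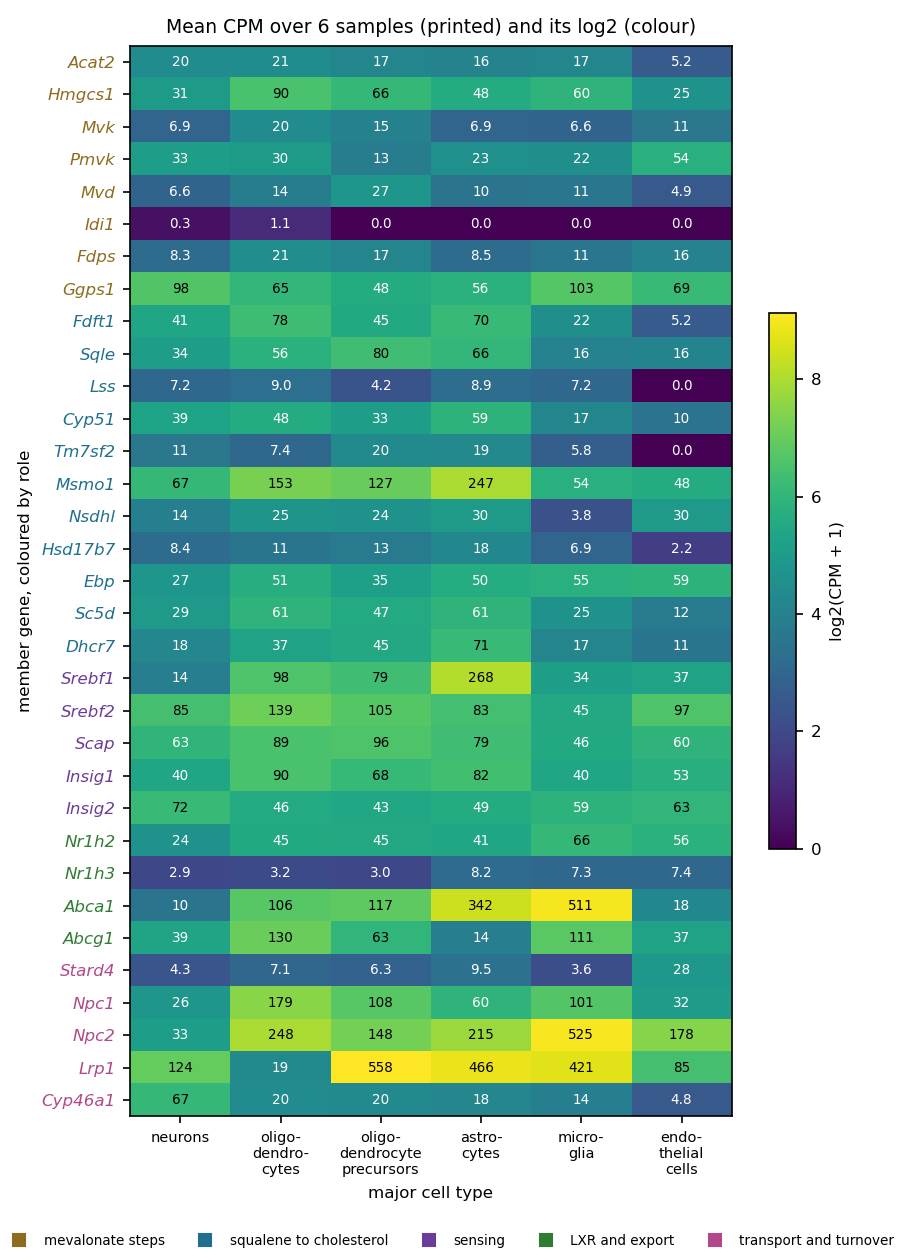
Mean CPM of each member (rows, grouped by role) in each major cell type (columns) over the 6 samples, printed in the cells and coloured by log2(CPM + 1), to be read along a row only. Srebf1 stands out in astrocytes at 268 CPM, Npc2 in microglia at 525 CPM and Cyp46a1 in neurons at 67.0 CPM.

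Several members were shared unevenly between glia. Abca1 averaged 511 ± 174 CPM in microglia and 342 ± 125 CPM in astrocytes (SD, n = 6), with overlapping samples, against 10.3 ± 6.18 CPM in neurons. Msmo1, the methylsterol oxidase that strips methyl groups off the sterol ring, averaged 247 ± 83.2 CPM in astrocytes, 153 ± 46.5 CPM in oligodendrocytes and 66.7 ± 27.5 CPM in neurons. Lrp1, a receptor that takes up apolipoprotein E particles, averaged 558 ± 122 CPM in oligodendrocyte precursor cells, 466 ± 114 CPM in astrocytes and 421 ± 167 CPM in microglia, and 19.1 ± 10.4 CPM in oligodendrocytes, where it was lowest of the 6 types. Npc1, the partner of Npc2 in the lysosome membrane, averaged 179 ± 45.7 CPM in oligodendrocytes and 26.4 ± 7.59 CPM in neurons. Idi1, the isomerase of the mevalonate steps, had 9 UMIs in all nuclei together and was too rare to compare.

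The main comparison was TESS against CON. UMIs were summed per sample over the nuclei of a class and tested with edgeR's quasi-likelihood test across all genes of that class. A gene was called at an adjusted p below 0.05. In the sum over all nuclei 32 members could be tested (Idi1 was too low), of which 1 rose (Abca1) and 2 fell (Msmo1 and Fdft1). Of the 13391 genes tested, 0.754% were called, 0.254% higher and 0.5% lower. An unadjusted p below 0.05 by edgeR was reached by 11 of the 32 members and by 1997 of the 13391 genes. The fitted log2 fold change was below 0 for 22 of the 32, with a median of -0.12 (-0.21 without CON 2 and -0.03 without CON 3), where 50.2% of all genes tested were below 0 with a median of -0.0013. The TESS and CON samples did not overlap for 9 of the 32, against 20.4% of all genes, a share near the background and so no result about the members. With batch as a term in the fit, edgeR called 0 members over all nuclei, 0 in neurons and 0 in oligodendrocytes, and 0 genes of any kind in the first 2 of these; 18 of the 32 members over all nuclei were then below 0, with a median of -0.04. Such a fit can set TESS against CON only inside batch 3. In a sum over all nuclei alone, a change in the share of a cell type and a change in RNA per nucleus cannot be told apart. With the mix of cell types held the same in every sample, the log2 difference of group means was -0.89 for Msmo1, -0.65 for Fdft1 and 0.90 for Abca1. Without that step these were -0.92, -0.67 and 0.92.

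**Figure D2:**
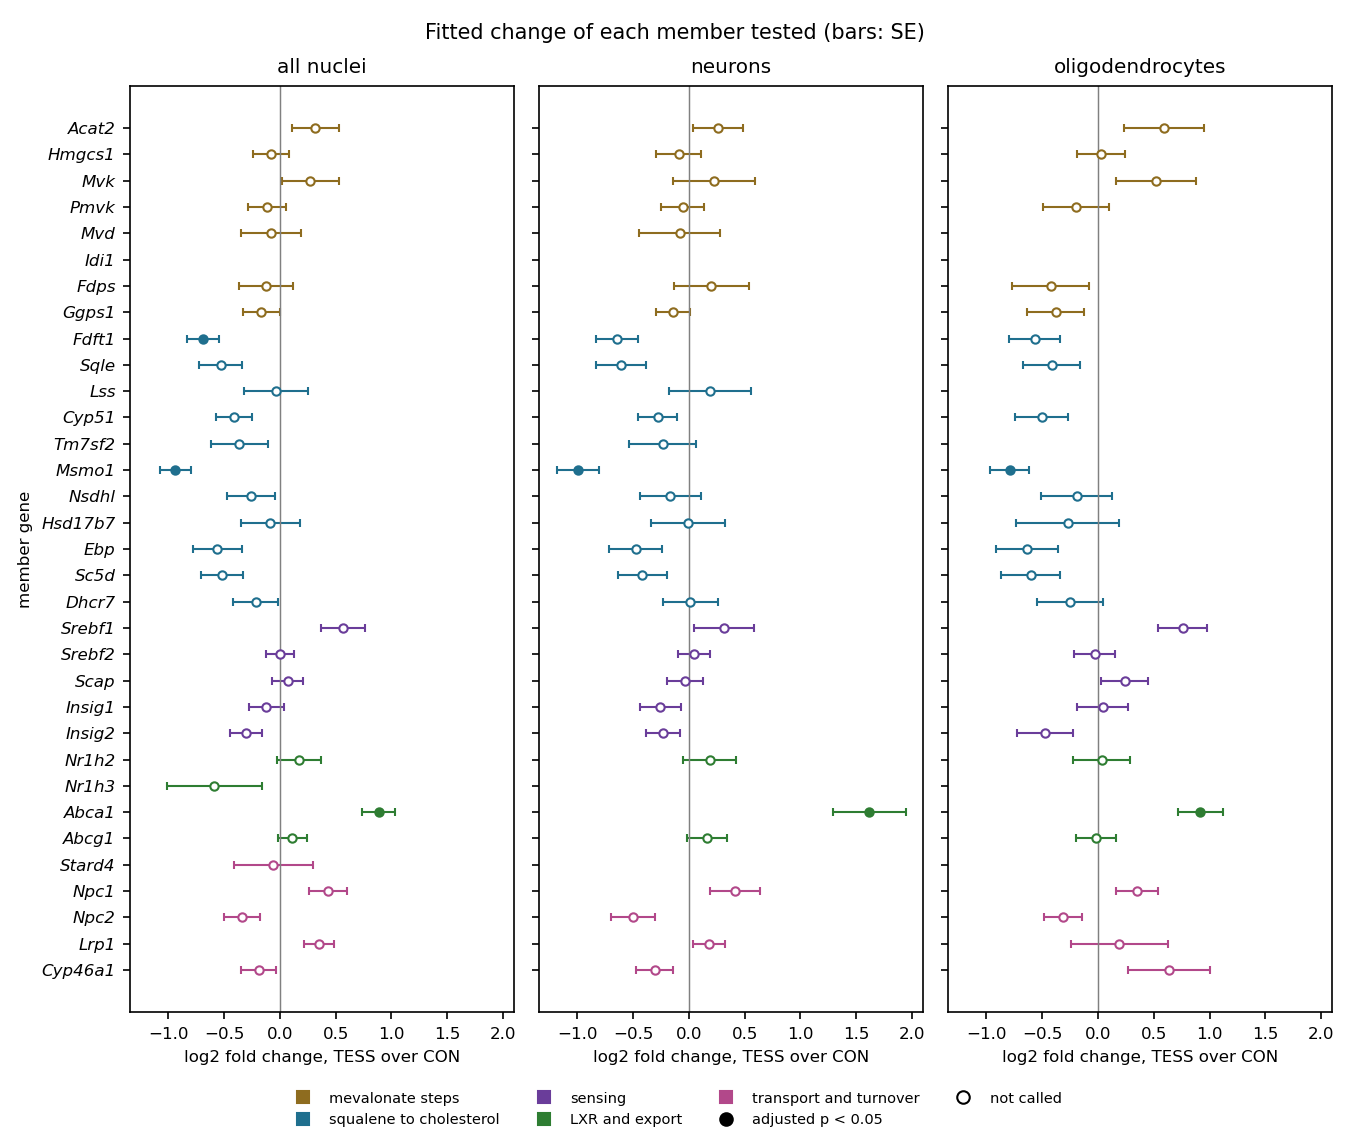
Fitted log2 fold change (TESS over CON, x axis) with its standard error for each member tested in all nuclei, neurons and oligodendrocytes, coloured by role; filled points passed the adjusted p of 0.05. Every enzyme of the squalene route that was tested lies left of 0 in all nuclei and in oligodendrocytes. Lss and Tm7sf2 were not tested in oligodendrocytes and have no point there. Abca1 lies right of 0 in all 3 panels.

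The enzymes from squalene synthase to cholesterol were, as a sum, lower in TESS samples. All 11 passed the filter in the sum over all nuclei, and each had a fitted fold change below 0, with a median of -0.41; 2 of them fell and 9 did not pass the test. Their summed level was 355, 249 and 291 CPM in TESS 1, 2 and 3, against 468, 413 and 441 CPM in CON 1, 2 and 3. No TESS sample reached the lowest CON sample, and the ratio of the group means was 0.678. Inside batch 3, TESS 1 (355 CPM) was also below CON 1 and CON 2. Gene by gene, 7 of the 11 were below 0 inside that batch and 4 above it, Lss at 0.14, Dhcr7 at 0.11, Hsd17b7 at 0.02 and Ebp at 0.01. Without Msmo1 and Fdft1, the enzymes called, the other 9 summed to 235, 151 and 198 CPM in TESS samples, against 270.0, 241 and 253 CPM in CON samples, and the groups still did not overlap, at a ratio of 0.763.

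The same sum was taken in each cell type. It was lower in every TESS sample than in every CON sample in neurons, oligodendrocytes, oligodendrocyte precursor cells, astrocytes and microglia, and overlapped in endothelial cells. These cell types are parts of the same 6 samples, so they are not independent and do not count as replicates. Among single genes tested, the groups did not overlap for 19.6% in neurons and oligodendrocytes, 17.4% in microglia, 16.6% in astrocytes and 13.3% in precursor cells. How often sums of other genes stood apart was not counted. Without Msmo1 and Fdft1 the groups stood apart in oligodendrocytes and astrocytes and overlapped in neurons, precursor cells, microglia and endothelial cells. In neurons the full sum was 313, 193 and 222 CPM in TESS samples, against 352, 330 and 358 CPM in CON samples. In oligodendrocytes it was 456, 415 and 440 CPM in TESS samples, against 745, 574 and 585 CPM in CON samples. In astrocytes it was 661, 427 and 487 CPM in TESS samples, against 804, 962 and 857 CPM in CON samples. The gap was narrower in microglia, with 203, 188 and 207 CPM in TESS samples against 291, 257 and 228 CPM in CON samples. Depth was low in these smaller classes, down to 53162 UMIs of all genes in TESS 3 microglia and 50040 in TESS 2 precursor cells. The sums there rest on few UMIs, and a gap as small as that in microglia may be counting noise. No test was run on these sums, since the members were grouped with earlier results of these data known.

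**Figure D3:**
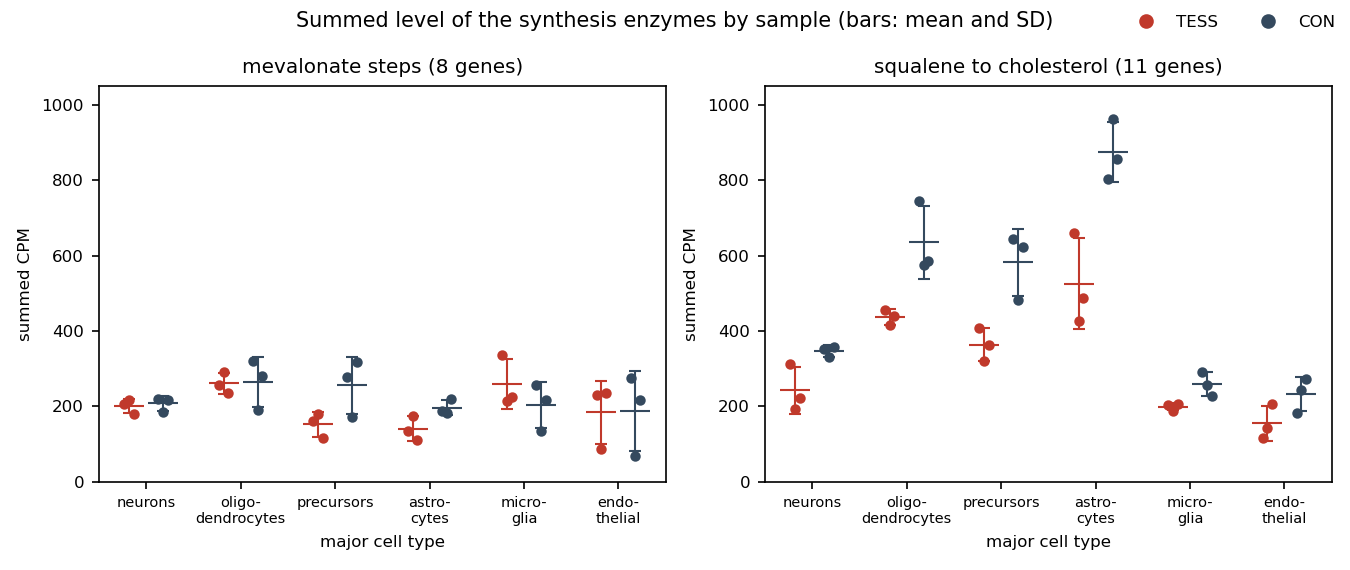
Summed CPM of the 8 genes of the mevalonate steps (left) and of the 11 genes from squalene to cholesterol (right) in each TESS and CON sample by major cell type, with group mean and SD (n = 3). In the right panel the groups stand apart in 5 of 6 cell types, which are parts of the same 6 samples. The sums in microglia and precursor cells rest on few UMIs. In neurons, for example, the highest TESS sample is at 313 CPM and the lowest CON sample at 330 CPM.

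Msmo1, at chr8:64718139-64733792 on the minus strand (GENCODE vM21 on GRCm38) with no overlapping gene, had the smallest p of the members over all nuclei. Over all nuclei it was at 77.8, 62.2 and 58.2 CPM in TESS 1, 2 and 3, against 132, 115 and 128 CPM in CON 1, 2 and 3. The groups did not overlap, and the fold change was -0.94 ± 0.14 on the log2 scale (SE; adjusted p = 0.00555 by edgeR). It passed the test with each of the 6 samples left out in turn, at -1.08 to -0.85. With the mix of cell types held the same in every sample the difference was -0.89, and inside batch 3 it was -0.67.

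Msmo1 fell within neurons and within oligodendrocytes as well. In neurons it was at 63.7, 38.6 and 29.5 CPM in TESS samples, against 88.0, 85.7 and 94.9 CPM in CON samples, with a fold change of -0.99 ± 0.19 (adjusted p = 0.0150 by edgeR). TESS 1 lay nearest to the CON samples: inside batch 3 the difference in neurons was -0.45, and the call was lost without TESS 3 (-0.81) or without CON 3. In oligodendrocytes Msmo1 was at 111, 125 and 106 CPM in TESS samples, against 222, 168 and 186 CPM in CON samples, a fold change of -0.79 ± 0.18 (adjusted p = 0.0200 by edgeR) and of -0.81 inside batch 3. The oligodendrocyte call held without TESS 2 or without CON 3 and was lost without any one of the other 4 samples, at -0.86 to -0.70 throughout.

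Astrocytes had the highest Msmo1 and the same direction. Msmo1 was at 216, 153 and 158 CPM in TESS astrocytes, against 331, 340 and 284 CPM in CON astrocytes, with no overlap. The fold change of -0.89 ± 0.28 did not pass the test (adjusted p = 0.115 by edgeR), and it rested on 43 UMIs in TESS and 168 UMIs in CON samples. In oligodendrocyte precursor cells Msmo1 was too low to test, at 58.1, 120 and 82.6 CPM in TESS samples against 116, 171 and 217 CPM in CON samples, which overlapped.

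Fdft1, squalene synthase, makes the first committed step towards sterols. Over all nuclei it was at 42.9, 35.8 and 35.4 CPM in TESS samples, against 65.7, 57.0 and 59.1 CPM in CON samples, without overlap, and fell by 0.69 ± 0.15 on the log2 scale (adjusted p = 0.0386 by edgeR). The call held without TESS 1 and was lost without any one of the other 5 samples, at -0.79 to -0.64; inside batch 3 the difference was -0.52. Fdft1 (chr14:63145150-63179578) overlaps Ctsb on the other strand, and the sources do not say whether counting used the strand, so reads of the pair may not be told apart. The same holds for 17 of the 33 members that overlap another annotated gene, 8 of them a gene of the count table (among them Tm7sf2 with Vps51, Lss, Fdps and Npc1). Ctsb itself was at 502 ± 75.1 CPM in TESS and 487 ± 56.2 CPM in CON samples (SD, n = 3 each). In neurons Fdft1 was at 40.4, 26.2 and 28.4 CPM in TESS samples, against 51.0, 44.6 and 53.7 CPM in CON samples, and missed the threshold at -0.64 ± 0.19 (adjusted p = 0.101 by edgeR; -0.24 inside batch 3); without the filter on low counts it passed at -0.67 (adjusted p = 0.0381). In oligodendrocytes it was at 56.9, 80.1 and 54.4 CPM in TESS samples, against 117, 80.7 and 76.2 CPM in CON samples, with the groups overlapping (-0.57 ± 0.23, adjusted p = 0.242 by edgeR).

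The other 9 enzymes of this route did not pass the test in any class. Sqle, the squalene epoxidase and a rate-limiting step, was at 37.7, 16.2 and 26.4 CPM in TESS neurons, against 37.8, 41.9 and 42.5 CPM in CON neurons. TESS 1 was level with the lowest CON sample, and the fold change was -0.61 ± 0.22 (adjusted p = 0.192 by edgeR), with -0.08 inside batch 3. Sc5d, the desaturase acting on the late sterols, was at 38.7, 24.6 and 31.6 CPM over all TESS nuclei, against 55.5, 41.9 and 36.5 CPM over all CON nuclei, with overlapping groups (-0.52 ± 0.19, adjusted p = 0.207 by edgeR). Ebp, an isomerase of the sterol ring, was at 59.5, 19.5 and 38.1 CPM in TESS oligodendrocytes, against 65.3, 67.4 and 54.7 CPM in CON oligodendrocytes (-0.64 ± 0.28, adjusted p = 0.285 by edgeR), with TESS 1 inside the CON range. Without TESS 1, Ebp over all nuclei passed the test at -1.004 (adjusted p = 0.0360 by edgeR), while inside batch 3 it did not move (0.01). Cyp51, the lanosterol demethylase, had -0.41 ± 0.16 over all nuclei, with the groups apart (adjusted p = 0.237 by edgeR). It overlaps Akap9 on the other strand, which was at 116, 103 and 104 CPM in TESS samples, against 89.7, 99.1 and 89.7 CPM in CON samples. Over all nuclei Lss, Tm7sf2, Nsdhl, Hsd17b7 and Dhcr7 lay between -0.36 and -0.03.

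Of the mevalonate steps, upstream of squalene, none was called. Of the 8 genes 7 were tested over all nuclei, 5 of them below 0, with a median of -0.08, and edgeR and DESeq2 each called 0 (0 at an unadjusted p below 0.05). Their summed level was 223, 227 and 190 CPM in TESS samples, against 244, 184 and 235 CPM in CON samples, and the groups overlapped. Hmgcs1, the synthase that feeds the pathway and a textbook SREBP target, was at 53.3, 43.6 and 41.7 CPM in TESS samples, against 49.2, 39.9 and 55.9 CPM in CON samples, a difference of -0.08 ± 0.16 (adjusted p = 0.860 by edgeR). The other tested steps ranged from -0.16 for Ggps1, which makes geranylgeranyl diphosphate, to 0.32 for Acat2, the thiolase at the entry, with Mvk, Pmvk, Mvd and Fdps between them. Ggps1 overlaps Arid4b on the other strand, and Acat2 has a near-identical copy, Acat3, at 0.63 to 2.00 CPM. In neurons and oligodendrocytes the medians of the tested steps were -0.05 and -0.08.

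Promoters of a pair of enzymes from the different branches are shown because Msmo1 fell and Hmgcs1 did not pass the test. The windows run from 250 bases before to 50 bases after the RefSeq gene start (GRCm38.p6). For Msmo1 the window is chr8:64733529-64733828 and for Hmgcs1 chr13:119690101-119690400, printed on the gene's own strand, minus for Msmo1 and plus for Hmgcs1. Capitals mark the sterol regulatory element TCACNCCAC, the letters CCAAT on either strand (ATTGG on the other) and the E-box CACGTG.
Msmo1: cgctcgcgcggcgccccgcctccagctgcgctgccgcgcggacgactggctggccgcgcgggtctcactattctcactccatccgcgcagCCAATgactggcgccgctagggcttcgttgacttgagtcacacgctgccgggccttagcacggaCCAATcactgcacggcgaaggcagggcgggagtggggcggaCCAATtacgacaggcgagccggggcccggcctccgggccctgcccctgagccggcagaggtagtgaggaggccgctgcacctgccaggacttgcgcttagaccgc
Hmgcs1: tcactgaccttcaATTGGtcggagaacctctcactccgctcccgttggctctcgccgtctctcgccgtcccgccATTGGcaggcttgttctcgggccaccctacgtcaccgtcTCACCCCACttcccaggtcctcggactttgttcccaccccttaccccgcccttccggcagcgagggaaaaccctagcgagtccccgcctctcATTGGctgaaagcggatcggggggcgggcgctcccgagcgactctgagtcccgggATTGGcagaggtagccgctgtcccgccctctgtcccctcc
Of the 27 members with such a window, the sterol regulatory element core was found in 1 (Hmgcs1), against 1.44% of all genes with a window. The Msmo1 window held CCAAT 3 times and none of these element cores. CCAAT was found in 21 of the 27 against 41.1% of all genes, the GC box GGGCGG in 23 against 38.2%, and the E-box in 6 against 8.09%, each searched on both strands. A match of letters is a description and not a site of binding, and a window without one says only that these letters are not in it.

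Abca1, the exporter that loads cholesterol onto apolipoproteins, moved the other way. It lies at chr4:53030787-53159895 on the minus strand with no overlapping gene. Over all nuclei it was at 71.9, 94.1 and 94.8 CPM in TESS 1, 2 and 3, against 49.2, 42.6 and 45.8 CPM in CON 1, 2 and 3. The groups stood apart: the lowest TESS sample was above the highest CON sample, and Abca1 rose by 0.88 ± 0.15 on the log2 scale (adjusted p = 0.0112 by edgeR). The call was lost without TESS 3 and held without any one of the other 5 samples, at 0.80 to 1.02, with 0.65 inside batch 3.
Abca1: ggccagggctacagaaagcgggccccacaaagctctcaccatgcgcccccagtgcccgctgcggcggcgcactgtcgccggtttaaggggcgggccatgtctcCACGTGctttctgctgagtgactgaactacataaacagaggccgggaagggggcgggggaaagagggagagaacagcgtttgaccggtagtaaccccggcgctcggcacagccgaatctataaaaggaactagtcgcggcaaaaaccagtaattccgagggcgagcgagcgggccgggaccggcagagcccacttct
This is the RefSeq promoter window of Abca1, chr4:53159846-53160145 on the minus strand of GRCm38.p6, shown because Abca1 is a textbook liver X receptor target; capitals mark its E-box. A liver X receptor element, taken as a pair of AGGTCA half-sites spaced by 4 bases with at most 1 mismatch in each, was found in the windows of 0 of the 27 members and of 2.02% of all genes. The search passes over any element with more than 1 mismatch in a half-site. The count therefore does not show that the Abca1 window lacks a liver X receptor element.

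Abca1 rose in neurons and in oligodendrocytes. In neurons it was at 15.0, 19.3 and 12.2 CPM in TESS samples, against 5.79, 3.84 and 5.61 CPM in CON samples, a rise of 1.62 ± 0.32 on the log2 scale (adjusted p = 0.0184 by edgeR). These levels rest on 27, 31 and 12 UMIs in TESS and 15, 10 and 12 UMIs in CON samples. The neuronal call held without TESS 1, TESS 3 or CON 1 and was lost without TESS 2, CON 2 or CON 3, at 1.40 to 1.74 throughout, and the difference was 1.63 inside batch 3. In oligodendrocytes Abca1 was at 110, 162 and 152 CPM in TESS samples, against 75.6, 60.8 and 77.3 CPM in CON samples, a rise of 0.92 ± 0.20 (adjusted p = 0.0185 by edgeR), with 0.69 inside batch 3. That call held without TESS 1, CON 1 or CON 3 and was lost without TESS 2, TESS 3 or CON 2, at 0.80 to 1.10.

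Since neurons held far less Abca1 than microglia and astrocytes, markers of those types were read in the same sums. The 5 microglial markers summed to 134, 108 and 114 CPM in TESS neurons, against 133, 155 and 118 CPM in CON neurons, and the 5 astrocyte markers to 133, 128 and 117 CPM in TESS neurons, against 88.8, 96.1 and 123 CPM in CON neurons. Both of these sums overlapped between the groups in neurons, with none of their genes at 0. The 4 markers of oligodendrocyte precursor cells did not overlap in neurons, at 418, 393 and 464 CPM in TESS samples against 295, 297 and 322 CPM in CON samples. Nor did they in oligodendrocytes, at 67.2, 67.1 and 97.9 CPM in TESS samples against 40.1, 39.9 and 59.5 CPM in CON samples. The astrocyte markers did not overlap in oligodendrocytes, at 449, 493 and 470 CPM in TESS samples against 278, 307 and 443 CPM in CON samples. They were also higher in every TESS sample in precursor cells, at 770.5, 819 and 826 CPM against 654, 662 and 535 CPM in CON precursor cells, in astrocytes, at 9481, 8976 and 9005 CPM against 7294, 6492 and 7226 CPM in CON astrocytes, and in microglia, at 692, 633 and 696 CPM in TESS samples against 405, 463 and 565 CPM in CON samples. The part of these markers' cells in the Abca1 results was not tested.

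In astrocytes and microglia, where it was highest, Abca1 did not pass the test. In astrocytes it was at 378, 537 and 402 CPM in TESS samples, against 226, 315 and 195 CPM in CON samples, without overlap (0.85 ± 0.25, adjusted p = 0.0887 by edgeR; 0.48 inside batch 3). In microglia it was at 426, 754 and 715 CPM in TESS samples, against 405, 385 and 380 CPM in CON samples (0.63 ± 0.25, adjusted p = 0.273 by edgeR), and TESS 1 stood close to the CON samples, with 0.11 inside batch 3. The fitted effect in neurons exceeded that in microglia by 1.09 ± 0.38 and that in oligodendrocytes by 0.72 ± 0.33 on the log2 scale, neither of which passed the test of the difference (adjusted p = 0.376 and 0.479 by edgeR).

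**Figure D4:**
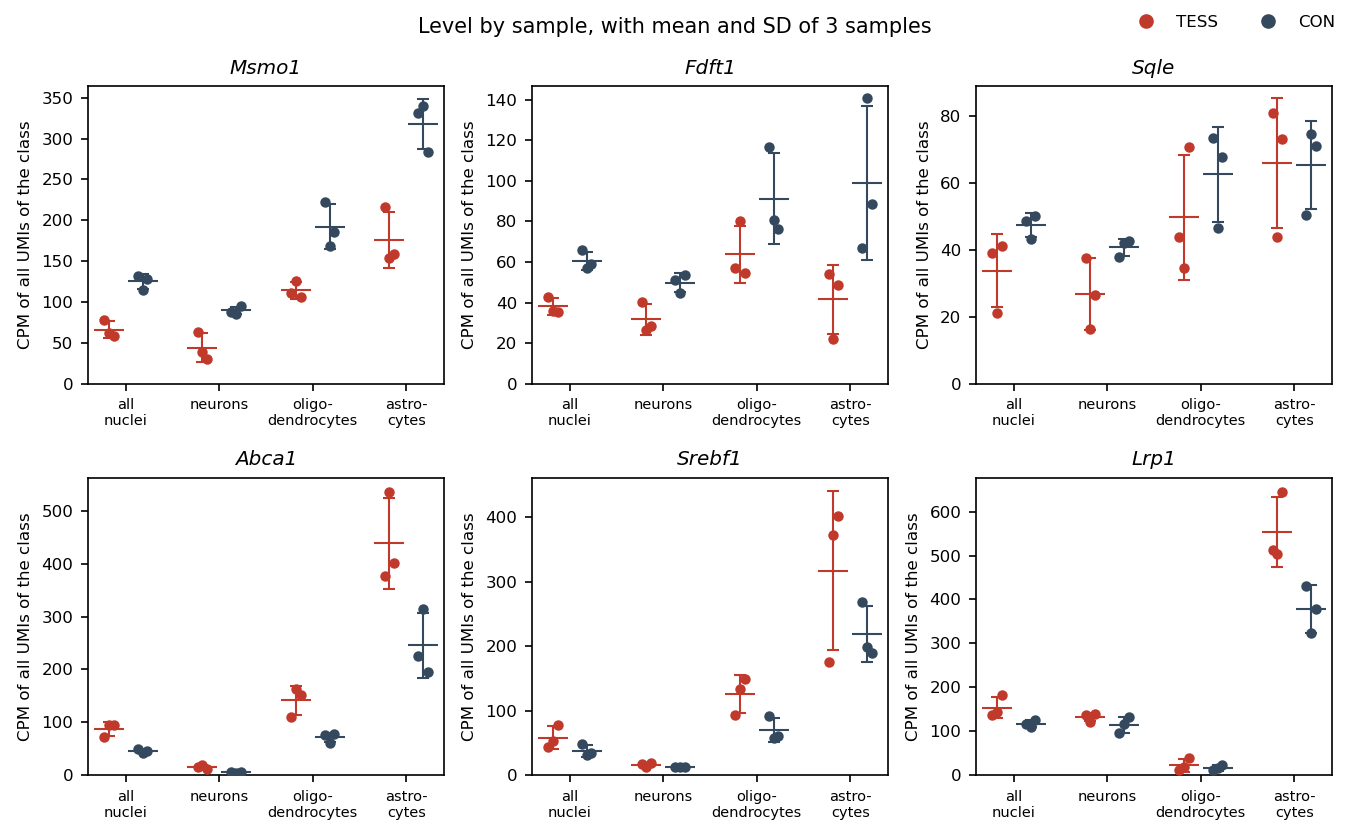
CPM of 6 members in each TESS and CON sample in all nuclei, neurons, oligodendrocytes and astrocytes, with group mean and SD (n = 3). Msmo1 is lower in every TESS sample than in every CON sample in each class shown and Abca1 higher, while Fdft1, Sqle, Srebf1 and Lrp1 overlap in some classes.

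The other genes of the liver X receptors and export did not pass the test. Abcg1, which exports cholesterol to high-density lipoprotein, was at 67.5, 64.7 and 64.5 CPM over all TESS nuclei, against 62.9, 60.4 and 54.7 CPM over all CON nuclei, a difference of 0.11 ± 0.13 (adjusted p = 0.734 by edgeR). The liver X receptor genes Nr1h2 and Nr1h3 were at 0.17 ± 0.20 and -0.59 ± 0.43, the second from 18 UMIs in TESS and 45 UMIs in CON samples.

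Among the 5 genes of sterol sensing edgeR and DESeq2 each called 0 over all nuclei. By edgeR 1 of them, Srebf1, had an unadjusted p below 0.05, as did 1997 of 13391 genes. Srebf2, the SREBP form that drives cholesterol synthesis, was at 106, 88.9 and 99.9 CPM in TESS samples, against 106, 90.9 and 91.8 CPM in CON samples, a difference of 0.00 ± 0.13. Its escort Scap had 0.07 ± 0.14, Insig1 -0.12 ± 0.16 and Insig2 -0.30 ± 0.14, none of which passed. Srebf1, which overlaps Rai1 on the other strand, was at 43.2, 52.7 and 77.7 CPM over all TESS nuclei, against 47.5, 30.5 and 34.5 CPM over all CON nuclei, with the groups overlapping (0.57 ± 0.20, adjusted p = 0.190 by edgeR; 0.15 inside batch 3). In oligodendrocytes Srebf1 was at 93.1, 134 and 150 CPM in TESS samples, against 91.7, 58.0 and 60.7 CPM in CON samples, where TESS 1 and CON 1 nearly met (0.76 ± 0.22, adjusted p = 0.0861 by edgeR; 0.32 inside batch 3). Without TESS 1 that value passed at 0.97 (adjusted p = 0.0335). In astrocytes Srebf1 was at 175, 373 and 402 CPM in TESS samples, against 268, 199 and 189 CPM in CON samples, so that TESS 1 was the lowest of all 6 (0.50 ± 0.27, adjusted p = 0.509 by edgeR), and inside batch 3 the difference was -0.41. Srebf2 in astrocytes was at 27.0, 54.8 and 122 CPM in TESS samples, against 101, 91.2 and 101 CPM in CON samples, from 17 UMIs in TESS and 52 UMIs in CON samples (-0.54 ± 0.44, adjusted p = 0.706 by edgeR).

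Of the 5 genes of uptake, transport and turnover edgeR and DESeq2 each called 0 over all nuclei. By edgeR 3 of them had an unadjusted p below 0.05, as did 1997 of 13391 genes. DESeq2 gave Stard4 no adjusted p there. Lrp1 was at 137, 142 and 181 CPM over all TESS nuclei, against 117, 109 and 125 CPM over all CON nuclei, without overlap (0.35 ± 0.13, adjusted p = 0.223 by edgeR). It was at 137, 122 and 139 CPM in TESS neurons, against 96.1, 116 and 132 CPM in CON neurons, with overlap (0.18 ± 0.14, adjusted p = 0.597 by edgeR). Its largest difference among the cell types tested was in microglia, at 405, 633 and 621 CPM in TESS samples against 326, 257 and 282 CPM in CON samples (0.88 ± 0.26, adjusted p = 0.105 by edgeR; 0.48 inside batch 3). The groups did not overlap there, and without TESS 1 the microglial value passed at 1.11 (adjusted p = 0.0339 by edgeR). In astrocytes Lrp1 was at 512, 504 and 646 CPM in TESS samples, against 432, 323 and 378 CPM in CON samples (0.50 ± 0.22, adjusted p = 0.322 by edgeR). It was the only member tested in oligodendrocyte precursor cells, at 640, 600 and 711 CPM in TESS samples against 537, 502 and 361 CPM in CON samples (0.44 ± 0.23, adjusted p = 0.586 by edgeR). There 0.155% of 1289 genes were called, and the groups did not overlap for 13.3% of them.

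Neither of the lysosomal cholesterol carriers passed the test. Npc1 was at 34.3, 19.9 and 37.6 CPM in TESS neurons, against 23.9, 20.4 and 22.4 CPM in CON neurons, where TESS 2 was the lowest of the 6 (0.41 ± 0.22, adjusted p = 0.401 by edgeR). In oligodendrocytes it was at 218, 143 and 250 CPM in TESS samples, against 174, 144 and 143 CPM in CON samples, again with TESS 2 at the CON level (0.35 ± 0.19, adjusted p = 0.398 by edgeR). Without TESS 2, Npc1 over all nuclei passed at 0.63 (adjusted p = 0.0391 by edgeR). Npc2 was at 229, 164 and 195 CPM in TESS astrocytes, against 272, 265 and 165 CPM in CON astrocytes (-0.30 ± 0.29, adjusted p = 0.755 by edgeR), and had -0.34 ± 0.16 over all nuclei (adjusted p = 0.323 by edgeR). Cyp46a1 was at 72.0, 48.0 and 60.9 CPM in TESS neurons, against 88.8, 66.9 and 65.4 CPM in CON neurons (-0.31 ± 0.17, adjusted p = 0.405 by edgeR). Stard4, which shuttles sterol between membranes, had 36 UMIs in TESS and 62 UMIs in CON samples and a difference of -0.06 ± 0.35.

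By class, the members read as follows against their backgrounds. In neurons 30 were tested, 1 rose (Abca1) and 1 fell (Msmo1), against 1.04% of 11686 genes called, 0.274% higher and 0.77% lower, with 18 below 0 and a median of -0.07 (-0.14 without TESS 1, -0.01 without TESS 2 or without CON 3); the groups did not overlap for 4 of the 30, against 19.6% of genes. In oligodendrocytes 27 were tested, 1 rose (Abca1) and 1 fell (Msmo1), against 1.65% of 8796 genes called, 1.07% higher and 0.58% lower, with 16 below 0 and a median of -0.19 (-0.07 without TESS 1, -0.10 without TESS 3, -0.06 without CON 1, -0.08 without CON 3); the groups did not overlap for 7 of the 27, against 19.6% of genes. The 9 squalene-route enzymes tested in oligodendrocytes were all below 0, with a median of -0.50, and 9 of the 11 tested in neurons, with a median of -0.28. In astrocytes edgeR and DESeq2 each called 0 of 6, against 0.976% of 2049 genes. By edgeR 3 of the 6 had an unadjusted p below 0.05, as did 238 of the 2049 genes. The groups did not overlap for 3 of the 6, against 16.6% of genes. In microglia edgeR and DESeq2 each called 0 of 4, against 0.6% of 2501 genes. By edgeR 2 of the 4 had an unadjusted p below 0.05, as did 298 of the 2501 genes. The groups did not overlap for 2 of the 4, against 17.4%. DESeq2 gave Abcg1 no adjusted p in microglia. No member could be tested in endothelial cells, where 1.54% of 583 genes were called. No member was called for a difference of the effect between neurons and another cell type over 130 tests (9 at an unadjusted p below 0.05 by edgeR), against 0.207% of genes in these tests. How many of all genes reached that unadjusted p in these tests was not counted.

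The study set out to find neuron subtypes recruited by TESS, so the members were followed through the 24 subtypes with at least 10 nuclei in every sample. Counts were too low for most: 22 pairs of a member and a subtype could be tested, over 6 members, and edgeR called 0 of them (5 at an unadjusted p below 0.05), against 0.0828% of all gene and subtype pairs. How many of all pairs reached that unadjusted p was not counted. The lowest unadjusted p belonged to Msmo1 in the Fxyd6 subtype, at 117, 23.5 and 56.5 CPM in TESS samples against 190, 135 and 173 CPM in CON samples, without overlap (-1.11 ± 0.37, adjusted p = 0.486 by edgeR). Lrp1 in the V1/V2b/Slit2 subtype had 1.11 ± 0.37 (adjusted p = 0.328 by edgeR).

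As a description, the mean of the TESS samples was below that of the CON samples for the squalene-route sum in 22 of the 24 subtypes, and for the mevalonate sum in 12. Msmo1 was lower in 20 subtypes, Ebp in 20 and Fdft1 in 19. All subtypes are parts of the same 6 samples, so they are not independent and do not count as replicates. How many of all genes were lower in as many subtypes was not counted. Abca1 was higher in 18 and lower in 2, with 0 to 8 UMIs a subtype over all 6 samples, too few for single values to be read. Levels varied between subtypes: over the 6 samples Msmo1 averaged 25.6 CPM in the Bnc2 subtype and 119 CPM in Rorb-I, Srebf2 27.0 CPM in Maf/Clbn2 and 220 CPM in Rorb, and Cyp46a1 26.3 CPM in Bnc2 and 105 CPM in Crh.

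**Figure D5:**
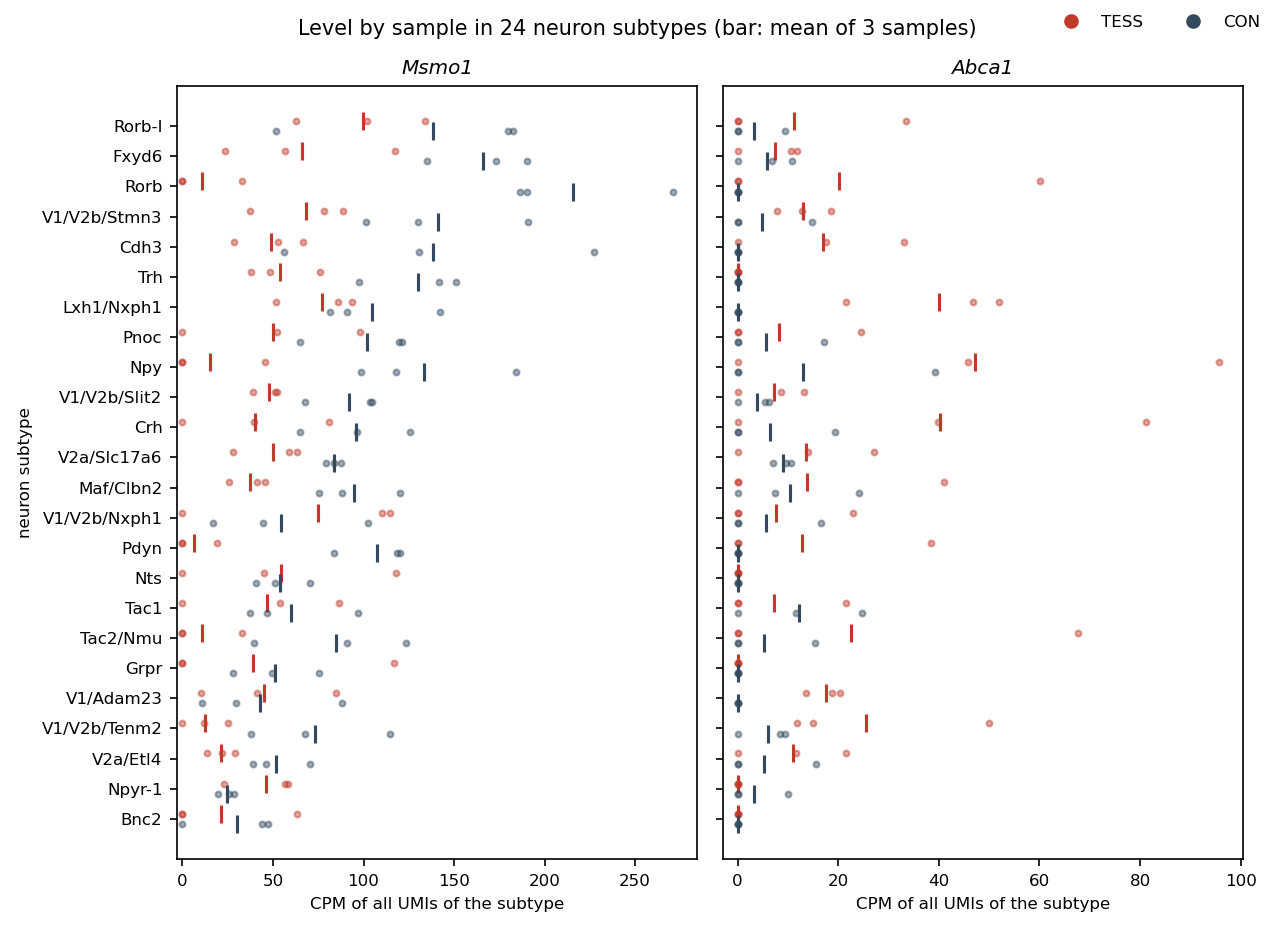
CPM of Msmo1 and Abca1 in each TESS (upper, red) and CON (lower, blue) sample of the 24 neuron subtypes, with bars at group means (n = 3). Msmo1 means are lower in TESS in 20 subtypes and Abca1 means higher in 18, with wide and overlapping samples in many.

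Neighbouring pathways were read from lists of related genes. Of 17 fatty acid synthesis genes, controlled in part by Srebf1, edgeR and DESeq2 each called 0 in any class. Over all nuclei 17 were tested, with a median of 0.03, and 2 had an unadjusted p below 0.05, as did 1997 of 13391 genes. In neurons 14 were tested, 12 of them above 0, with a median of 0.13, where 50.7% of all genes tested were below 0. An unadjusted p below 0.05 was reached by 5 of the 14 and by 1718 of 11686 genes. In neurons 8 of the 14 had no adjusted p by DESeq2. Of 11 further liver X receptor targets, among them Apoe and Mylip, each tool called 0 in any class, and over all nuclei 9 were tested (1 at an unadjusted p below 0.05), with a median of 0.11. DESeq2 gave no adjusted p for 5 of the 6 tested in neurons and 3 of the 5 tested in microglia. Of 32 further genes of cholesterol uptake, synthesis, storage and turnover edgeR called 2, Lrpap1 and Apod. Lrpap1, the chaperone of Lrp1, was at 158, 118 and 169 CPM in TESS neurons, against 247, 258 and 209 CPM in CON neurons. It fell by 0.72 ± 0.14 on the log2 scale (adjusted p = 0.0150 by edgeR), a call lost without CON 2, and over all nuclei by 0.64 ± 0.14 (adjusted p = 0.0430 by edgeR), a call lost without any one sample. Apod, an apolipoprotein made by glia, was at 850, 614 and 756 CPM in TESS astrocytes, against 452, 315 and 396 CPM in CON astrocytes, and rose by 0.87 ± 0.21 (adjusted p = 0.0222 by edgeR). In oligodendrocytes it was at 8118, 11146 and 9342 CPM in TESS samples, against 7548, 6177 and 5527 CPM in CON samples, and rose by 0.52 ± 0.13 (adjusted p = 0.0404 by edgeR). The groups did not overlap for Lrpap1 or Apod in any of these 4 comparisons. DESeq2 made neither of these Apod calls but called Apod over all nuclei, where edgeR did not (0.48 ± 0.12, adjusted p = 0.0631); the astrocyte call held without TESS 2 or CON 1 and the oligodendrocyte call without TESS 1 or CON 1, and each was lost without any one of the other 4 samples.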

How the data were processed

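Nuclei were read with 10x version 2 chemistry, and Cell Ranger 2.2.0 and Seurat 3 are named in the submitters' processing notes, with builds mm10 and GRCm38. The deposited table holds UMI counts per gene and nucleus, which the authors left unnormalized, with their cell types and batch numbers in a second table; a fraction per nucleus that the authors deposited there, without explaining its name, was not used; how introns and strand were counted is not given in the sources used here. Groups were taken from the labels. Counts were summed per sample over the nuclei of each class and tested with edgeR 4.0.16 (R 4.3.3): TMM scaling, filterByExpr at a minimum count of 10, glmQLFit and glmQLFTest, 3 TESS against 3 CON samples, with Benjamini-Hochberg adjustment over all genes tested in the class. SE is the fold change over the square root of F. Effects were compared between neurons and each other cell type by an interaction with sample as a block. CPM is counts per 1000000 UMIs of the class, and overlap between groups was judged on CPM. Inside batch 3, TESS 1 was set against the mean of CON 1 and CON 2 without a test. Holding the cell mix fixed gave every sample the same weights of the 6 types. The code was tested on simulated counts with known changes. Alternatives were DESeq2 1.42.0, its size factors, no filter, each sample left out, a replicate block and a batch term. Named members were those called, the 3 smallest p in each direction in 4 classes, members set apart between cell types, and related genes called; a few others were named after their values were seen. The members and lists were chosen with earlier results of these data known. Promoter windows came from RefSeq (GRCm38.p6), gene positions from GENCODE vM21. Subtypes with under 10 nuclei in any sample (14 of 38) were not tested. The files hold 18514 nuclei where the series text counts 20484, and 6035 neurons against its 6171. Nuclei were used as deposited, with no further doublet removal.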

Additional observations from a re-analysis of the deposited data

How the results depend on the processing

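Over all nuclei 3 members were called; the count was 0 with a batch term and 1 to 4 with 1 sample left out. In neurons 2 were called, with 3 without the low-count filter (Fdft1 added) and 1 by DESeq2. The neuron count was 0 with a batch term and 0 to 2 with 1 sample left out. DESeq2 gave most of the 30 members tested in neurons no adjusted p, Abca1, Fdft1 and Sqle among them, and so could not call them. In oligodendrocytes 2 were called, with 0 under a batch term and 0 to 2 with 1 sample left out. In microglia 0 were called, with 1 (Lrp1, adjusted p = 0.0238 by edgeR) under the replicate block and 0 to 1 with 1 sample left out. For oligodendrocyte precursor cells, astrocytes, neuron subtypes and differences between cell types the member count was 0 under every alternative run. A set of 28 gene and class results was followed through the alternatives. It held the members called, the 3 smallest p in each direction in 4 classes, and the related genes called. Other results given with values, such as Lrp1 in microglia, were not in it. Among the 28, Srebf1 in astrocytes alone reversed, to -0.49 with a batch term (adjusted p = 0.838 by edgeR). The batch term rests on the 1 batch that holds both groups: with it edgeR called 0 genes of any kind over all nuclei and in neurons, and 73 in oligodendrocytes. Members below 0 then numbered 18 of 32 over all nuclei, 15 of 30 in neurons and 19 of 27 in oligodendrocytes, against 22, 18 and 16 without the term, so other members changed sign too; their medians were -0.04, -0.0024 and -0.10 with the term. Without the low-count filter the oligodendrocyte median was -0.07, over 33 members in place of 27.

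Counts over all genes moved more. Over all nuclei 101 genes were called, against 250 without the filter, 158 by DESeq2 and 18 to 118 with 1 sample left out; in neurons 122, against 335 without the filter and 19 to 105; in oligodendrocytes 145, against 270 without the filter and 32 to 164. In astrocytes 20 were called, against 6 by DESeq2, 3 with a batch term and 8 to 22 with 1 sample left out, and in microglia 15, against 27 without the filter, 101 with the replicate block, 8 with a batch term and 1 to 48. In oligodendrocyte precursor cells 2 were called, against 8 without the filter, 12 with the replicate block, 1 by DESeq2, 1 with a batch term and 2 to 14 with 1 sample left out. In endothelial cells 9 were called, against 18, 19, 2 and 0 under the same settings and 0 to 7. The causes were not tested. Of the 28 results followed, all 28 kept direction and call under DESeq2's size factors and under the replicate block. With a batch term all 11 of them that had been called lost the call, those of Lrpap1 and Apod included. Lrp1 in microglia, which was not among the 28, gained a call under the replicate block.

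TESS and CON samples share only replicate numbers: same-numbered samples correlated at -0.146, -0.0124 and 0.0154 in their deviations over all nuclei, so the replicate block was not treated as a pairing. Low counts limited the tests, most of all in glia other than oligodendrocytes and in subtypes, and the TESS samples were the shallower ones.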
